A study of Mus musculus with 6 samples.

Results

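The histone genes of the mouse were examined in lung innate lymphoid cells (ILCs) that lack or carry the cold-inducible RNA-binding protein RBM3. Members were all rows of the deposited count table whose gene symbol begins with Hist1h to Hist4h, with H2af, with H3f3 or with H1f, which gave 71 of 14416 rows. Of these, 59 carry a Hist symbol and are the replication-dependent genes, and 12 are variant genes. H2afy3, counted among the 12, is annotated as a processed pseudogene. RNA had been sequenced from 3 samples labelled RBM3KO and 3 labelled WT, both C57BL/6J. All 6 came from lung Lin-Thy1.2+ ILCs of mice challenged with Alternaria alternata, a mould whose extract evokes allergic lung inflammation, at 25 µg given 3 times in 7 days. The groups therefore differ, as labelled, in genotype alone and share the allergen, and no unchallenged mice were analysed here. The sources used here do not give how the Rbm3 allele was disrupted. Nothing in the labels ties a replicate to its own animal; a p-value therefore reflects the spread among these 6 samples, and that spread may be technical.

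Histones are the proteins around which DNA is wound: H2A, H2B, H3 and H4 form the nucleosome core, and H1 binds the DNA between nucleosomes. Replication-dependent histone genes lie in clusters, are transcribed mainly in S phase and supply the histones that package newly made DNA; their mRNAs end in a conserved stem-loop, bound by the protein SLBP, in place of a polyA tail. Variant histone genes lie scattered in the genome, usually have introns and polyadenylated mRNAs, and are expressed through the whole cell cycle. Allergen challenge makes lung ILCs of the type that secretes type 2 cytokines divide, which is when a cell needs new histones.

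The stem-loop is the feature that sets the mRNAs of the first class apart, and the sites of the most abundant members are shown here because these libraries capture polyA RNA. Sites were read 5′ to 3′ from GENCODE M21 transcripts, with DNA letters, and capitals mark the stem and its loop.
Hist1h1c: aaGGCTCTTTTCAGAGCCaccactccca
Hist1h4d: aaGGCCCTTTTCAGGGCCactaccttct
Hist1h2ae: aaGGCTCTTTTCAGAGCCattcacttaa
Hist3h2a: aaGGCTCTTTTCAGAGCCacccacaacc
Hist1h1e: aaGGCTCTTTTCAGAGCCacccacaact
Hist1h4c: aaGGCCCTTTTCAGGGCCacccacaaat
H2afx: aaGGCCCTTTTAAGGGCCaccacctccc
The search took GG and any 4 bases, a loop of any 4 bases, and the reverse complement of the first 6, on the transcript's strand, within the first 100 bases of the annotated 3′ untranslated region. Of the 46 replication-dependent genes with at least 16 annotated bases there, 41 held such a stem-loop, in 8 distinct forms, and 22 held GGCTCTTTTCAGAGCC. Among 11 variant genes with such a region H2afx alone held one, and 39 of 11386 other genes did (0.343%). For the remaining 13 replication-dependent genes, Hist1h1b among them, the annotation stops at or near the stop codon, so the stem-loop was not searched. In 16 of the 41 genes a polyA signal (AATAAA or ATTAAA) followed the stem-loop in the annotated transcript, including Hist1h1c, Hist1h4d, Hist1h2ae and Hist3h2a above. These matches are descriptions of the annotated letters, and which transcript ends the reads cover was not examined.

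The total count of a library was 7498247 to 16936670 in RBM3KO and 13339633 to 25068137 in WT, and 11382 genes passed the filter on low counts. Rbm3 itself averaged 26.8 ± 4.63 CPM, its count scaled to the TMM-adjusted size of the library, in RBM3KO and 292 ± 22.0 CPM in WT (SD, n = 3 each), in the direction of the labels. All 10 ILC markers were present, and their summed level was 6427 to 7300 CPM in RBM3KO and 4817 to 5880 CPM in WT. Id2 and the cytokine gene Areg had the highest levels, Areg at 1628 ± 225 CPM in RBM3KO and 1016 ± 329 CPM in WT. In 7 markers all RBM3KO libraries lay above all WT libraries, against 8.43% of all tested genes. Gata3, Ptprc and Thy1, the gene of the sorted marker, overlapped, Thy1 at 103 ± 7.17 CPM in RBM3KO and 104 ± 14.6 CPM in WT. B-cell and plasma-cell markers, 8 of 10 in the table, summed to 40.8 to 46.0 CPM in RBM3KO and 66.6 to 88.6 CPM in WT, and the plasma-cell gene Igj was at 0 in all 3 RBM3KO libraries. T-cell markers, 9 of 10 in the table, overlapped at 529 to 794 CPM in RBM3KO and 575 to 738 CPM in WT, with Lck and Cd3g at the highest levels. Epithelial markers, all 7 in the table, summed to 21.9, 22.3 and 359 CPM in RBM3KO and 19.7 to 121 CPM in WT, RBM3KO replicate 3 being the highest. Macrophage, monocyte and dendritic markers, 8 of 10 in the table, summed to 3.07, 55.6 and 66.6 CPM in RBM3KO and 24.6, 72.0 and 168 CPM in WT, and 7 of the 8, Csf1r and Cd68 among them, were at 0 in at least 1 library. The part of these marker differences in the histone values was not tested.

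Of the 49 histone genes that could be tested, 5 were lower in RBM3KO ILCs: the replication-dependent genes Hist1h1b, Hist1h2ae and Hist1h4d and the variant genes H2afz and H2afy. In the edgeR quasi-likelihood test with Benjamini-Hochberg adjustment over all tested genes, a call being an adjusted p under 0.05, 1.00% of all tested genes were called lower. No histone gene was called higher by edgeR, DESeq2 or limma-voom, against 0.246% of all tested genes called higher by edgeR; at an unadjusted p under 0.05 Hist1h1c was the 1 higher member. By class, 3 of 40 tested replication-dependent genes and 2 of 9 tested variant genes were called. In bulk RNA, fewer dividing cells and less histone RNA in each cell cannot be told apart.

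The called members were the better counted ones. At a mean of at least 10 CPM stood 8 replication-dependent and 8 variant genes, of which 3 and 2 were called, while 1.49% of all genes at that level were called lower. The other 51 replication-dependent genes averaged under 10 CPM, 32 of them could be tested, and their log2 fold changes had a standard error (SE) of 0.52 to 1.64, so that their 95% intervals were wide. Of those 32 edgeR called 0, and 0 reached an unadjusted p under 0.05, against 1403 of all 11382 tested genes; DESeq2 and limma-voom called 0 as well. Across the 40 tested replication-dependent genes 31 estimates lay below 0 and 9 above, with a median log2 fold change of -0.51, and across the 9 variant genes 6 lay below 0 and 3 above, with a median of -0.35; the median over all tested genes was 0.01. All RBM3KO libraries lay below all WT libraries in 10 replication-dependent and 4 variant genes, against 10.5% of all tested genes, and above them in 1, Hist1h4h, against 8.43% of all tested genes. The filter asks for about 0.614 CPM in 3 libraries. Of the tested members, 37 reached this in all 6 libraries. Another 7 did so in all 3 WT libraries and not in all RBM3KO libraries, and 1 the other way round. This imbalance can tilt the counts of signs and the medians downward, so these are descriptions without a test.

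**Figure D1:**
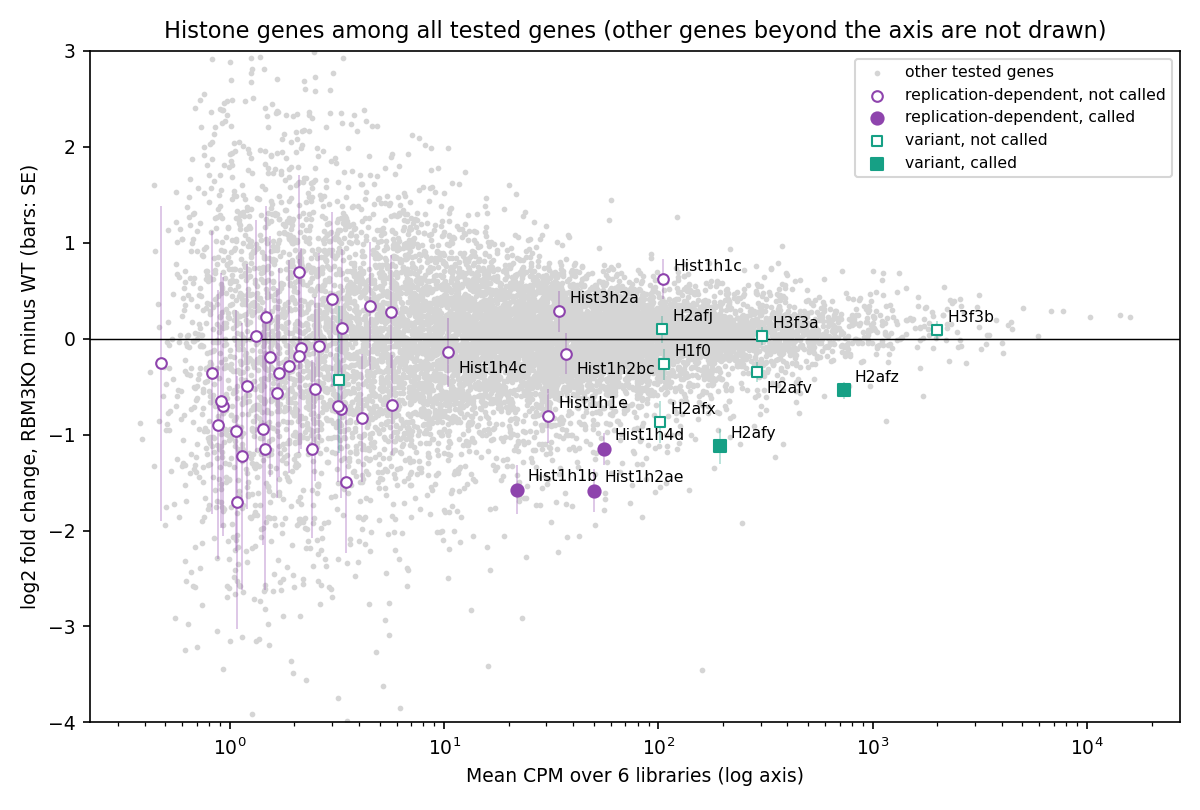
Log2 fold change, RBM3KO minus WT, of each tested gene (vertical axis) against its mean CPM over 6 libraries (horizontal, log axis); grey points are other genes, circles replication-dependent and squares variant histone genes, filled where called, with SE bars. The 5 filled symbols all lie below 0 and at a mean above 10 CPM, while the circles under 10 CPM have wide bars.

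The 5 calls depended on the libraries in different degrees. Hist1h2ae stayed called when any library other than WT replicate 1 was left out, with adjusted p of 0.0106 to 0.0910 over the 6 edgeR fits. Leaving out WT replicate 1 ended all 5 calls, and leaving out RBM3KO replicate 2 ended all but Hist1h2ae. Without WT replicate 2 the calls of Hist1h1b and H2afz ended, without WT replicate 3 those of Hist1h1b and H2afy, and without RBM3KO replicate 1 that of H2afz. Without RBM3KO replicate 3, the shallowest library, all 5 remained called. The log2 fold changes stayed between -1.82 and -1.44 for Hist1h2ae, -1.60 and -1.56 for Hist1h1b, -1.21 and -1.09 for Hist1h4d, -1.29 and -0.92 for H2afy and -0.57 and -0.48 for H2afz in these 6 fits.

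The replication-dependent linker histone genes differed among themselves, and 1 of them was called. Hist1h1b (chromosome 13, 21779883 to 21780625, minus strand, mm10), an H1 gene of a single exon, had 11.3, 10.8 and 10.9 CPM in RBM3KO, against 31.7, 33.3 and 33.3 CPM in WT. The groups were far apart and each was tight, and the gene fell by 1.58 on the log2 scale (SE 0.25, edgeR adjusted p = 0.0172). Hist1h1c (chromosome 13, 23738808 to 23740367, plus strand), another H1 gene and the replication-dependent gene with the most reads, had 166, 101 and 117 CPM in RBM3KO, against 67.9, 78.5 and 103 CPM in WT. RBM3KO replicate 1 was the highest and the groups overlapped slightly, RBM3KO replicate 2 lying under WT replicate 3 (log2 fold change 0.62, SE 0.21, edgeR adjusted p = 0.225). Hist1h1e (chromosome 13, 23620629 to 23622558, minus strand), also an H1 gene, had 30.9, 16.2 and 19.7 CPM in RBM3KO, against 35.9, 43.6 and 37.4 CPM in WT. Its groups did not overlap, yet the change missed the threshold (log2 fold change -0.81, SE 0.28, edgeR adjusted p = 0.238). Part of Hist1h1e also overlaps the annotated span of Hist1h2be on the same strand, so reads of the pair may have been mixed or lost. Hist1h1d, at 5.02 ± 2.61 CPM in RBM3KO and 3.98 ± 1.16 CPM in WT, and Hist1h1a, under 10 counts in every library, complete the family.

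Of the core H2A genes, Hist1h2ae (chromosome 13, 23570517 to 23571220, minus strand) had 32.2, 19.9 and 22.7 CPM in RBM3KO, against 85.9, 70.0 and 69.0 CPM in WT. The highest RBM3KO library lay far below the lowest WT library, and the gene fell by 1.58 on the log2 scale (SE 0.22, edgeR adjusted p = 0.0101), the lowest adjusted p among the members. Hist3h2a (chromosome 11, 58954685 to 58956830, plus strand), an H2A gene outside the large cluster, had 41.5, 37.3 and 34.2 CPM in RBM3KO, against 27.9, 29.4 and 35.4 CPM in WT. These groups overlapped (log2 fold change 0.28, SE 0.22, edgeR adjusted p = 0.690). The approximate 95% interval of this change, -0.14 to 0.71 on the log2 scale, leaves out a fall of the size seen in Hist1h2ae. Hist3h2a is overlapped by Trim17 on the same strand and 31.5% of its 50-base windows occur in other genes, so its count and its ratio are uncertain too.

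Of the H4 genes, which encode the same protein from different loci, Hist1h4d (chromosome 13, 23581598 to 23582735, plus strand) had 37.5, 33.7 and 33.0 CPM in RBM3KO, against 83.4, 73.4 and 74.2 CPM in WT. It fell by 1.15 on the log2 scale (SE 0.17, edgeR adjusted p = 0.0117), with no overlap. Hist1h4c (chromosome 13, 23697635 to 23698454, minus strand) had 10.6, 9.49 and 9.56 CPM in RBM3KO, against 10.7, 9.64 and 12.5 CPM in WT. The groups overlapped (log2 fold change -0.14, SE 0.36, edgeR adjusted p = 0.940), with an interval of -0.85 to 0.56. Among H2B genes, Hist1h2bc, whose annotated transcript has 2 exons and no stem-loop, had the most reads, at 41.2, 30.9 and 33.2 CPM in RBM3KO, against 40.1, 34.2 and 43.2 CPM in WT. It overlapped between the groups (log2 fold change -0.16, SE 0.22, edgeR adjusted p = 0.872). No replication-dependent H3 gene reached 10 CPM: the highest, Hist1h3c, had 1.70, 2.03 and 1.75 CPM in RBM3KO, against 5.25, 3.76 and 6.42 CPM in WT, with no overlap and an SE of 0.74 (log2 fold change -1.49, edgeR adjusted p = 0.456).

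**Figure D2:**
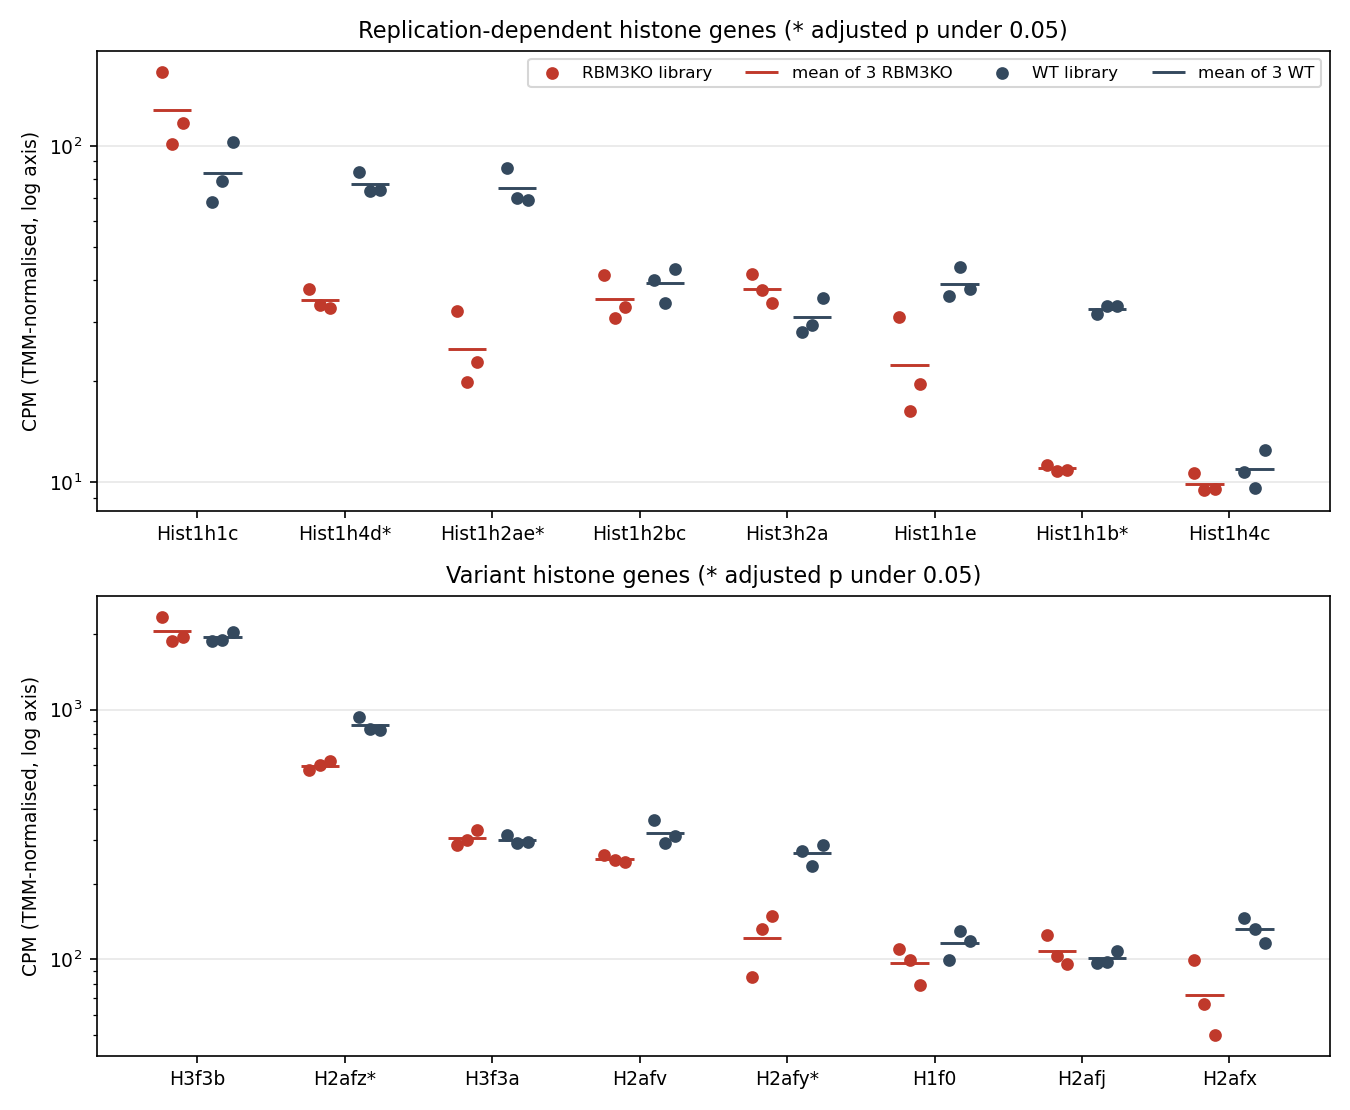
CPM in each library (points, log axis) with the mean of 3 libraries (lines) for the 8 most abundant replication-dependent (top) and variant (bottom) histone genes, RBM3KO in red left of WT in dark blue; asterisks mark the 5 called genes. Hist1h4d, Hist1h2ae and Hist1h1b separate clearly, while Hist1h2bc, Hist3h2a and Hist1h4c overlap.

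Near-identical copies make single replication-dependent genes uncertain, since reads that match several genes can be split or dropped in counting. In 27 of the 59 genes more than 50% of the 50-base windows of the transcript also occur in transcripts of another gene; none of the 8 genes of at least 10 CPM and no variant gene was among the 27. The share was 43.2% for Hist1h2ae, 10.2% for Hist1h4d and 0% for Hist1h1b, and for H2afz and H2afy it was 33.2% and 0%. Sums over a family are therefore given further on beside the single genes.

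The promoters of the 3 called replication-dependent genes and of H2afz are shown, since these genes were lower together. The windows run from 250 bases before to 50 bases after the gene start in RefSeq (GRCm38.p6), 5′ to 3′ on the gene's strand, at chr13:21780576-21780875 (minus) for Hist1h1b, chr13:23571171-23571470 (minus) for Hist1h2ae, chr13:23581318-23581617 (plus) for Hist1h4d and chr3:137864237-137864536 (plus) for H2afz. Capitals mark CCAAT or its reverse complement ATTGG, and TATAAA or its reverse complement TTTATA.
Hist1h1b: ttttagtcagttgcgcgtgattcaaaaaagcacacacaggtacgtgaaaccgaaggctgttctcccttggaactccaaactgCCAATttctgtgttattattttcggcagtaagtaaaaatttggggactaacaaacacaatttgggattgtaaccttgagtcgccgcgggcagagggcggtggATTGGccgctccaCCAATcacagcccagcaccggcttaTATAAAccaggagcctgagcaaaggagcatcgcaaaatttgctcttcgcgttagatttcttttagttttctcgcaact
Hist1h2ae: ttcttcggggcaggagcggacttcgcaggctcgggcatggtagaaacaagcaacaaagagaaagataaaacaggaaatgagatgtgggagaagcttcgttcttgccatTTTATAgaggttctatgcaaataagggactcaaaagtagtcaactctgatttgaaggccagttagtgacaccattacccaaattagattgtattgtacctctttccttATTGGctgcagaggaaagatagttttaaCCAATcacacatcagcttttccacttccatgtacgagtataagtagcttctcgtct
Hist1h4d: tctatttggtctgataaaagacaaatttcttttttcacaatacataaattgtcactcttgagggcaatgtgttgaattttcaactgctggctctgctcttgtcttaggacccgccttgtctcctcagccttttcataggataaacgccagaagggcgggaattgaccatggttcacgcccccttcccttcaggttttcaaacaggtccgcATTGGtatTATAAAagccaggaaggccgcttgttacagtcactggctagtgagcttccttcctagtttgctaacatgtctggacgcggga
H2afz: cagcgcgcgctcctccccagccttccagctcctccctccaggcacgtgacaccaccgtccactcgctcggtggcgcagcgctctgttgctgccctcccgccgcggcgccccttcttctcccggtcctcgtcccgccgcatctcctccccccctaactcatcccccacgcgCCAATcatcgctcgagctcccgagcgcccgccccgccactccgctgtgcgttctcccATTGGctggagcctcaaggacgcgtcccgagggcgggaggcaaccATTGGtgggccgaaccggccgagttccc
On either strand CCAAT occurred in 83.6% of 55 matched replication-dependent promoters, in 70.0% of 10 variant promoters and in 37.4% of all 32851 RefSeq mouse promoters of this length. TATAAA, again on either strand, occurred in 33 of the 55, in 1 of the 10 and in 13.6% of all promoters, and the window of H2afy held neither. Most replication-dependent promoters held each motif, so these motifs alone do not mark out the called genes. Other promoter elements were not searched, and called and uncalled genes were not compared. RefSeq windows were matched for 64 of the 71 members. The Hist1h2ae window runs into the divergent gene Hist1h2bg, which starts at 23571396 on the plus strand and had 1.83, 1.19 and 1.48 CPM in RBM3KO, against 4.43, 3.41 and 2.19 CPM in WT. Those groups did not overlap, with a wide error (log2 fold change -1.15, SE 0.93, edgeR adjusted p = 0.718). The only TATAAA or TTTATA in the Hist1h2ae window is the TATAAA of the Hist1h2bg window read on the other strand. It was counted for both genes.

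Because a called and an uncalled gene of one family share a library, their ratio of counts does not depend on library scaling. Hist1h1c held 14.7, 9.35 and 10.7 counts per count of Hist1h1b in RBM3KO, against 2.14, 2.36 and 3.09 in WT. For Hist3h2a over Hist1h2ae the ratio was 1.29, 1.87 and 1.503 in RBM3KO, against 0.325, 0.421 and 0.513 in WT. Hist1h4c over Hist1h4d gave 0.283, 0.282 and 0.290 in RBM3KO, against 0.128, 0.131 and 0.168 in WT. In each of these pairs all RBM3KO libraries lay above all WT libraries. Each of these ratios had a two-sided exact permutation p of 0.1, the smallest that 3 against 3 libraries allow, or 0.125 adjusted over 5 ratios, and the pairs were chosen after the values had been seen. The H3 variant pair H3f3b over H3f3a stood at 6.79 ± 1.22 in RBM3KO and 6.49 ± 0.487 in WT (SD, n = 3 each, exact permutation p = 0.9). The remaining ratio, H2afv over H2afz, stood at 0.424 ± 0.0321 in RBM3KO and 0.371 ± 0.0198 in WT, without overlap (exact permutation p = 0.1).

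**Figure D3:**
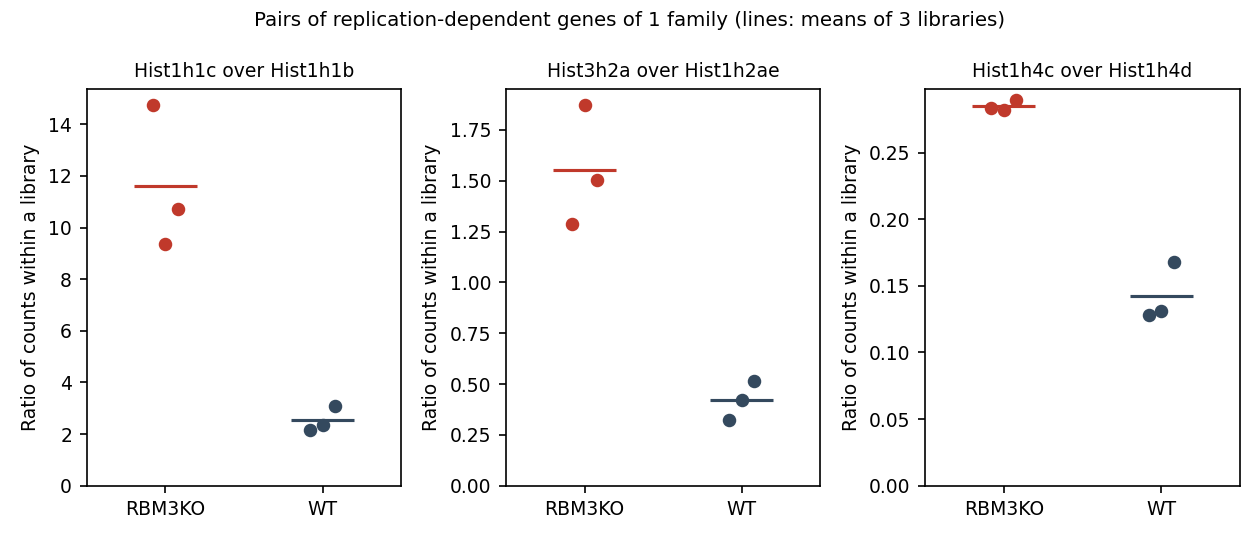
Ratio of the counts of 2 replication-dependent genes of 1 family within each library (vertical axes, from 0), for RBM3KO (left, red) and WT (right, dark blue), with lines at the means of 3 libraries. In each panel all RBM3KO points lie above all WT points, the widest gap being that of Hist1h1c over Hist1h1b.

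Of the 6 tested variant H2A genes, 5 had an estimate below 0 and 2 of these passed the test. H2afz (chromosome 3, 137864487 to 137866922, plus strand) encodes H2A.Z, which replaces H2A near promoters, and it had 571, 598 and 621 CPM in RBM3KO, against 939, 836 and 825 CPM in WT. The gap was small in proportion and precise: the gene fell by 0.54 on the log2 scale (SE 0.09, edgeR adjusted p = 0.0172). H2afv (chromosome 11), which encodes a second H2A.Z protein, had 262, 250 and 245 CPM in RBM3KO, against 362, 291 and 313 CPM in WT. It also showed no overlap, but the change missed the threshold (log2 fold change -0.35, SE 0.11, edgeR adjusted p = 0.176).

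H2afy (chromosome 13, 56073619 to 56136361, minus strand) encodes macroH2A, a large variant associated with repressed chromatin. It had 84.8, 133 and 149 CPM in RBM3KO, against 273, 237 and 288 CPM in WT. RBM3KO replicate 1 was the lowest, no library overlapped, and the gene fell by 1.12 on the log2 scale (SE 0.18, edgeR adjusted p = 0.0175). Its relative H2afy2 was sparse, at 2.35, 3.52 and 2.42 CPM in RBM3KO, against 3.77, 2.70 and 4.70 CPM in WT, which overlapped (log2 fold change -0.43, SE 0.77, edgeR adjusted p = 0.907).

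H2afx (chromosome 9, 44334694 to 44336077, plus strand) encodes H2A.X, which is phosphorylated at DNA breaks, and it is the variant gene with a stem-loop. Its levels were 99.1, 66.6 and 49.9 CPM in RBM3KO, against 147, 133 and 116 CPM in WT. The groups did not overlap, but the RBM3KO libraries were spread widely and the change missed the threshold (log2 fold change -0.87, SE 0.22, edgeR adjusted p = 0.106). It was called without RBM3KO replicate 1, with the stricter filter of 10 CPM in 3 libraries and with DESeq2. H2afj, a further H2A variant, had 125, 103 and 96.1 CPM in RBM3KO, against 96.8, 98.0 and 108 CPM in WT, which overlapped (log2 fold change 0.10, SE 0.14, edgeR adjusted p = 0.877).

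The replacement H3 genes had overlapping levels in the genotypes. H3f3b (chromosome 11), which encodes H3.3, had 2359, 1882 and 1950 CPM in RBM3KO, against 1890, 1892 and 2053 CPM in WT (log2 fold change 0.09, SE 0.10, edgeR adjusted p = 0.832). H3f3a (chromosome 1), which encodes the same protein, had 288, 301 and 329 CPM in RBM3KO, against 315, 291 and 295 CPM in WT (log2 fold change 0.03, SE 0.10, edgeR adjusted p = 0.959). The approximate 95% intervals, -0.10 to 0.27 for H3f3b and -0.16 to 0.21 for H3f3a, leave out a fall of the size of H2afz in both. Cenpa, the centromeric H3 outside the symbol rule, had 125, 124 and 101 CPM in RBM3KO, against 173, 164 and 146 CPM in WT, with no overlap (log2 fold change -0.46, SE 0.13, edgeR adjusted p = 0.146).

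Among variant linker histones, H1f0, which accumulates in cells that stop dividing, had 110, 99.9 and 79.1 CPM in RBM3KO, against 99.9, 130 and 118 CPM in WT. These overlapped (log2 fold change -0.27, SE 0.16, edgeR adjusted p = 0.569). H1fx had 0, 1 and 0 counts in the RBM3KO libraries, against 7, 17 and 42 counts in the WT libraries. It was too sparse for the filter, is singled out after its values were seen, and had an adjusted p of 0.499 in the edgeR fit with no filter. An annotated gene overlaps H1fx on each strand, and the libraries do not mark strand, so the source of these few reads cannot be told apart. The 22 untested members, 19 of them replication-dependent, had totals over the 6 libraries of 1 to 67 counts, H1fx being the highest, and averaged at most 0.667 CPM. Hist1h2af, Hist1h4k and Hist1h2bf had no count in any RBM3KO library, and H1foo, Hist1h4j and H2afy3 had none in any WT library; a count of 0 allows up to 3 counts, or 0.117 to 0.404 CPM in these libraries for counting error alone.

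Summed over the copies of a family, the replication-dependent H2A and H4 genes separated the genotypes, and the H1, H2B and H3 genes overlapped. Replication-dependent H2A genes summed to 76.5 ± 12.9 CPM in RBM3KO and 127 ± 7.92 CPM in WT, and H4 genes to 53.9 ± 2.48 CPM in RBM3KO and 98.8 ± 7.43 CPM in WT (SD, n = 3 each). Without Hist1h2ae the H2A sum was 51.5 ± 6.75 CPM in RBM3KO and 52.4 ± 1.55 CPM in WT, and without Hist1h4d the H4 sum was 19.2 ± 0.265 CPM in RBM3KO and 21.8 ± 3.91 CPM in WT. Each removed gene was chosen by its change, so these remainders are descriptions, and per kilobase (kb) of transcript the H2A remainder was 42.5 ± 7.38 in RBM3KO and 55.9 ± 3.78 in WT without overlap. H1 genes summed to 167 ± 44.4 CPM in RBM3KO and 159 ± 17.8 CPM in WT. Without Hist1h1b, also removed by its change, the H1 sum was 156 ± 44.1 CPM in RBM3KO and 126 ± 17.04 CPM in WT. These H1 remainders overlapped too. H2B genes gave 61.2 ± 10.8 CPM in RBM3KO and 71.7 ± 5.97 CPM in WT, and H3 genes 11.9 ± 5.62 CPM in RBM3KO and 18.2 ± 0.890 CPM in WT. All 59 genes together stood at 370 ± 75.7 CPM in RBM3KO and 475 ± 10.6 CPM in WT. Here too the groups did not overlap but came close, at 456 CPM in RBM3KO replicate 1 and 464 CPM in WT replicate 2. Without the 3 called genes, again removed by their change, the sum was 299 ± 66.7 CPM in RBM3KO and 291 ± 16.8 CPM in WT. Those sums overlapped.

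Variant genes made up most of the histone reads. They summed to 3620 ± 247 CPM in RBM3KO and 4053 ± 123 CPM in WT. The groups did not overlap but nearly touched, at 3901 CPM in RBM3KO replicate 1 and 3911 CPM in WT replicate 2. The variant H2A genes alone gave 1154 ± 9.72 CPM in RBM3KO and 1691 ± 116 CPM in WT, and the H3 pair 2370 ± 245 CPM in RBM3KO and 2245 ± 89.2 CPM in WT. H3f3b accordingly took 51.6 ± 2.21% of all histone CPM in RBM3KO and 43.0 ± 1.76% in WT. Replication-dependent genes took 9.21 ± 1.11% in RBM3KO and 10.5 ± 0.131% in WT, and these shares overlapped, RBM3KO replicate 1 lying above WT replicate 1. How far polyA capture sets this share was not tested.

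**Figure D4:**
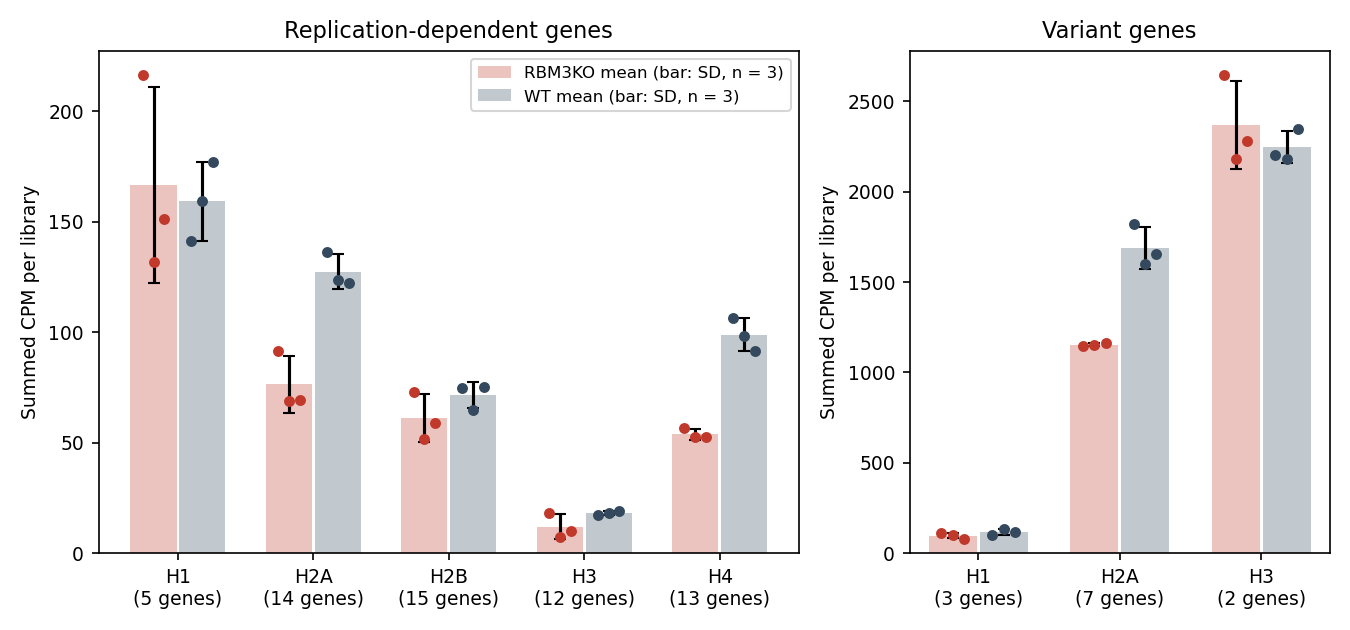
Summed CPM per library of the replication-dependent (left) and variant (right) genes of each histone family, as points per library, with bars for the mean and whiskers for the SD of 3 libraries, RBM3KO in red left of WT in grey. The replication-dependent H2A and H4 sums and the variant H2A sum separate, and the other sums overlap.

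Per kilobase of annotated transcript, the order of the 8 replication-dependent genes of at least 10 CPM differed between the genotypes. Genes under 10 CPM were left out of this order. Among them Hist1h2bj averaged 15.3 CPM per kb in WT, above Hist3h2a and Hist1h4c there. In RBM3KO the order ran from Hist1h1c, at 82.1 CPM per kb, to Hist1h2ae at 35.4, Hist1h4d at 30.5, Hist1h2bc at 30.4, Hist3h2a at 17.5, Hist1h1b at 14.8, Hist1h4c at 12.1 and Hist1h1e at 11.5 CPM per kb. In WT it ran from Hist1h2ae, at 107 CPM per kb, to Hist1h4d at 67.7, Hist1h1c at 53.3, Hist1h1b at 44.1, Hist1h2bc at 33.9, Hist1h1e at 20.2, Hist3h2a at 14.4 and Hist1h4c at 13.3 CPM per kb. In RBM3KO the libraries of Hist1h2ae, Hist1h4d and Hist1h2bc overlapped, and the libraries of Hist1h1e, at 8.42 to 16.02 CPM per kb, overlapped those of Hist1h4c, Hist1h1b and Hist3h2a; in WT those of Hist1h4d and Hist1h1c did, as did those of Hist1h1c and Hist1h1b and those of Hist3h2a and Hist1h4c. Among the variants per kb, H3f3b stood at 821 CPM per kb and H2afz at 558 CPM per kb in RBM3KO without overlap, against 774 and 811 CPM per kb in WT, where the libraries of the pair overlapped. Annotated transcripts of some Hist genes lack untranslated regions, which raises their value per kb.

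Members with a polyA signal after the stem-loop included called and uncalled genes. Of the tested replication-dependent genes with a stem-loop, 14 also had a polyA signal after it, with 2 called (Hist1h2ae and Hist1h4d) and a median log2 fold change of -0.14, and 15 had none after it, with 0 called by edgeR, DESeq2 or limma-voom and a median of -0.53; Hist1h1e was the 1 of these 15 with an unadjusted p under 0.05, and 1.00% of all tested genes were called lower. These medians rest on sparse genes, at a median level of 2.38 and 2.51 CPM, and are descriptions without a test. Position was also shared by called and uncalled genes: 47 of the 59 replication-dependent genes lie on chromosome 13, 9 on chromosome 3, 2 on chromosome 11 and 1 on chromosome 6, and 56 have a single exon.

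Genes that make, deposit and use histones were counted from the same test. Of 18 tested genes for histone transcription and mRNA processing, edgeR called 0, against 1.00% of all tested genes called lower, and 4 reached an unadjusted p under 0.05, against 1403 of all 11382 genes, with a median log2 fold change of -0.21. Slbp, whose protein binds the stem-loop, stood at 169 ± 7.70 CPM in RBM3KO and 209 ± 1.44 CPM in WT (log2 fold change -0.31, SE 0.10, edgeR adjusted p = 0.205). Cpsf3, the nuclease that cuts histone pre-mRNA, stood at 91.6 ± 5.41 CPM in RBM3KO and 121 ± 16.5 CPM in WT (log2 fold change -0.40, SE 0.14, edgeR adjusted p = 0.250). Of 27 tested histone chaperone and exchange genes 2 were called, both lower, against 1.00% of all tested genes, with a median of -0.23. Asf1b, which hands H3 and H4 to the assembly machinery, fell to 155 ± 21.5 CPM in RBM3KO, against 275 ± 49.9 CPM in WT (log2 fold change -0.82, SE 0.15, edgeR adjusted p = 0.0344). Ruvbl2, an ATPase of complexes that exchange H2A.Z, fell to 106 ± 7.04 CPM in RBM3KO, against 158 ± 9.78 CPM in WT (log2 fold change -0.58, SE 0.12, edgeR adjusted p = 0.0461). DESeq2 called 4 genes of both lists together, and each fit that left out a library called at most 1.

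Genes of DNA replication were lower in RBM3KO in 11 of 38 cases, all 38 listed genes having been tested, against 1.00% of all tested genes. The estimates of all 38 lay below 0, with a median log2 fold change of -0.68. The largest changes among the called genes were those of E2f1, a transcription factor of S-phase genes (log2 fold change -1.39), Cdc45 of the replicative helicase (-1.17), Rrm2 and Tyms of deoxynucleotide synthesis (-1.10 and -1.01), Tk1 of thymidine salvage (-0.85) and Uhrf1 of maintenance methylation (-0.76). Rrm2, for example, fell to 154 ± 24.7 CPM in RBM3KO, against 329 ± 54.8 CPM in WT (SE 0.15, edgeR adjusted p = 0.00812). Among 20 mitotic genes 10 were called lower, against the same 1.00%, with a median of -1.25. These lists were known to be lower in the same libraries when they were chosen, so they are no independent support, and their part in the histone values was not tested. Without WT replicate 1 none of the 38 replication genes was called, and at most 9 were called without any other single library.

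**Figure D5:**
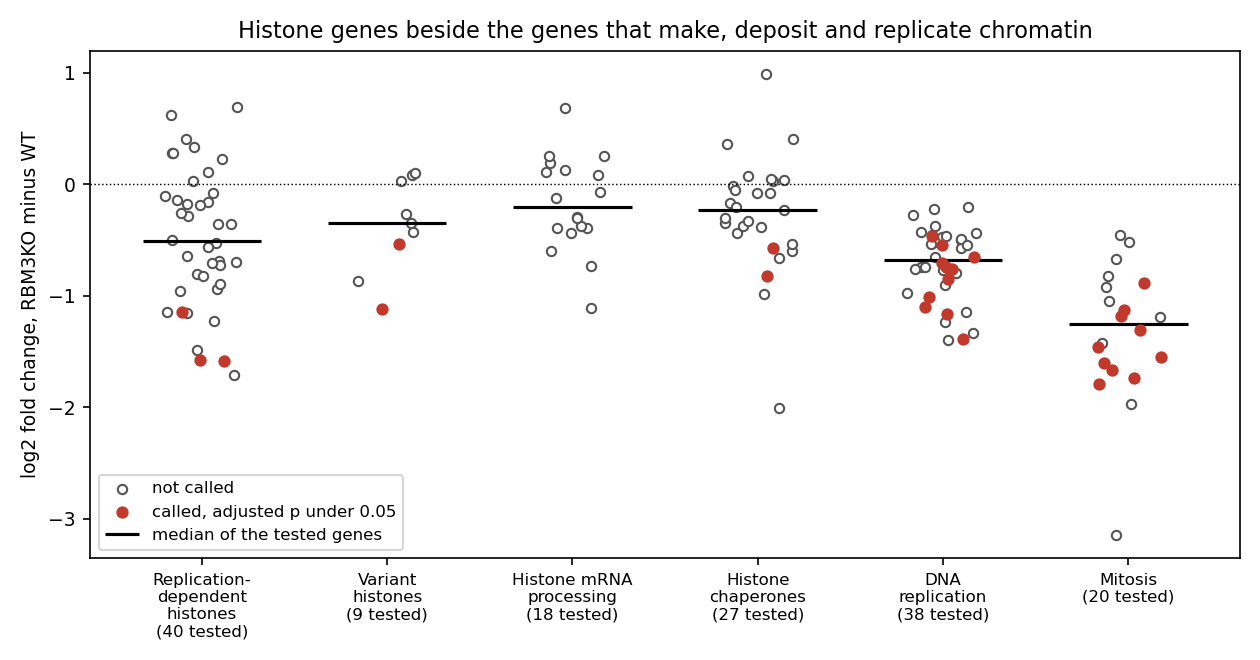
Log2 fold change, RBM3KO minus WT, of each tested gene (points, red where called) of the histone classes and of the lists for histone mRNA processing, histone chaperones, DNA replication and mitosis, with black lines at the medians. The replication and mitosis lists lie below 0 throughout, while both histone classes, the processing genes and the chaperones spread to both sides of 0.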

How the data were processed

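The deposited file is a table of counts, whole numbers of reads for each gene symbol in each sample. Per the labels' protocols, total RNA was made into cDNA by Smart-seq2, which primes on polyA tails, and into Nextera XT libraries; in their standard form these mark no strand and carry no molecular identifiers. Per the submitters' processing notes, the tools were featureCounts 1.6.5, STAR 2.6.1c and Bowtie 1.0.0, and the build was mm10. The sources used here do not give the strand setting or the handling of multimapping reads. No columns of other samples were present. Samples were grouped by the labelled genotype.

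Genes were filtered with filterByExpr, scaled by TMM and tested in edgeR 4.0.16 (R 4.3.3) by the robust quasi-likelihood fit without covariates, adjusted by Benjamini-Hochberg over 11382 genes holding 99.9% of the counts, threshold 0.05. Log2 fold changes are RBM3KO minus WT. Levels are TMM-normalised CPM; sums add these over genes. No pair of libraries agreed within counting noise (chi-square per degree of freedom at least 21.5), so none were merged; with PCR copies counted, this does not show that they are separate biological samples. Intervals are the log2 fold change ± 1.96 SE and are somewhat narrow for 6 libraries. That of Hist1h3c, -2.95 to -0.04, left out 0 at an unadjusted edgeR p of 0.0706. Intervals and floors cover counting error or the fit alone.

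Coordinates, transcripts and stem-loops came from GENCODE M21, which uses the assembly of mm10, and promoters from RefSeq (GRCm38.p6). Named in full were the called members and the 8 most abundant tested genes of each class; of other lists, up to 6 called members or the 2 most abundant. Members, lists and tests were chosen with earlier results of these data known. Alternatives were other filters, RLE and upper quartile scaling, DESeq2 1.42.0, limma-voom (limma 3.58.1), a non-robust fit, a replicate block, counts thinned to equal depth and leaving out each library.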

Additional observations from a re-analysis of the deposited data

How the results depend on the processing

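The 3 replication-dependent and 2 variant calls held in all 9 settings that kept every library, and H2afx joined them under the stricter filter, with DESeq2 and with the replicate block. Leaving out one library gave 0 to 3 replication-dependent calls, 0 to 2 variant calls, 12 to 99 called genes in all (142 with every library), 0 to 1 processing and chaperone genes and 0 to 9 DNA replication genes; the median log2 fold change ran from -0.68 to -0.34 for replication-dependent and from -0.44 to -0.26 for variant genes. DESeq2 called 414 genes, 4 processing and chaperone genes and 18 DNA replication genes. Processing and chaperone calls fell to 1 with upper quartile scaling, the non-robust fit, the replicate block and equal depth. The replication-dependent median was -0.39 with limma-voom and -0.34 at equal depth, where 30 genes were tested, and the variant median was -0.21 at equal depth. When one library was left out, the uncalled log2 fold changes of H3f3b ran from -0.023 to 0.149 and of H2afj from -0.021 to 0.175, both turning negative without RBM3KO replicate 1, and that of H3f3a from -0.028 to 0.067, negative without RBM3KO replicate 3. Beyond the fewer genes or samples in such fits, the cause was not tested. Replicate numbers did not pair the samples: deviations of equally numbered libraries correlated at 0.06, 0.06 and 0.01 over genes, and the replicate block called 149 genes. Low counts limit the 51 replication-dependent genes under 10 CPM, and near-identical copies leave many Hist symbols uncertain.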
